A study of Homo sapiens with 12 samples.

Results

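The MHC class I antigen presentation genes HLA-B, HLA-C, B2M, TAP1, TAP2, TAPBP, PSMB8, PSMB9 and NLRC5 were followed in AsPC-1, an established cell line of human pancreatic cancer. These 9 genes were taken as a named list and found by pairing the Ensembl IDs of the gene counts with symbols. All 9 were among the 16999 genes tested, out of 57820 gene IDs. Lipofectamine RNAiMAX carried siRNA into the cells, which was either siARNT, directed at ARNT, or the scrambled siControl. ARNT is the partner that HIF alpha subunits need in order to bind DNA. On the next day the cells were divided and kept at 21% O2 (normoxia) or moved to 1% O2 for 24 h (hypoxia), and all RNA was taken 48 h after transfection. This gave 4 groups, each with replicates A, B and C, named normoxia siControl, hypoxia siControl, normoxia siARNT and hypoxia siARNT. The controls therefore also carried siRNA and transfection reagent, all 12 libraries come from 1 cell line, and the knockdown was partial. The labels do not say whether the replicates were separate cultures grown apart in time, so the p-values measure the spread between these samples, which may be partly technical.

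Class I molecules show peptides from inside the cell to CD8+ T cells and also engage receptors of NK cells. The proteasome cuts proteins into peptides, the TAP1 and TAP2 transporter carries the peptides into the endoplasmic reticulum, tapasin (TAPBP) holds an empty class I molecule beside the transporter, and a heavy chain such as HLA-B or HLA-C paired with beta-2 microglobulin (B2M) takes the peptide to the cell surface. Interferons raise most of these genes, and NLRC5 acts on class I promoters together with the RFX complex. Loss of class I is a known way for tumours, pancreatic cancer among them, to avoid T cells.

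Gene counts per library totalled 38.53 to 84.34 M. ARNT fell with siARNT by 2.22 on the log2 scale in normoxia (SE 0.07, edgeR adjusted p 8.99e-09) and by 2.17 in hypoxia (SE 0.07, adjusted p 2.65e-09). CA9 and NDRG1, which HIF raises, were higher in hypoxia siControl than in normoxia siControl by 3.27 and 3.09. Epithelial markers summed to between 5913 and 9999 CPM, where CPM (counts scaled to 1 M per library) is taken after TMM scaling. Leukocyte markers summed to between 0.644 and 2.07 CPM with CD3E at 0 in all 12 libraries, so RNA of antigen-presenting blood cells was at or near 0. Fibroblast markers summed to between 335.8 and 593.3 CPM, nearly all of it LUM, with the other 4 markers each at 0.988 CPM or less in every library. LUM rose with hypoxia in siControl by 0.44 (adjusted p 0.00546) and was lower with siARNT in hypoxia by 0.49 (adjusted p 0.00258), and its part in the results was not tested. Libraries differed in how far genes of high GC content stood above or below their mean over the 12 libraries. The GC slope of a library, in log2 units per 10% GC, ran from -0.207 in normoxia siControl replicate A to 0.429 in normoxia siARNT replicate B. In normoxia the slopes of replicates A, B and C were 0.003, 0.429 and 0 with siARNT, all above the -0.207, -0.038 and -0.174 with siControl. Slope and siRNA therefore cannot be told apart in normoxia. The transcripts of the class I genes have GC contents of 54.9 to 60.2%, apart from B2M at 40.7%, against a median of 48.3% over tested genes.

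Of these genes 7 lie in the MHC region of chromosome 6. In the RefSeq annotation of GRCh38.p14 they are HLA-C at chr6:31268749-31272092, HLA-B at chr6:31353875-31357179, TAP2 at chr6:32821831-32838739, PSMB8 at chr6:32840717-32844679, TAP1 at chr6:32845209-32853704, PSMB9 at chr6:32854192-32859851 and TAPBP at chr6:33299694-33314078. B2M is at chr15:44711517-44718145 and NLRC5 at chr16:56989557-57083520. TAP1 and PSMB9 are read in opposite directions from starts 488 bases apart. Promoters of 8 of the genes were in the RefSeq table. The stretches below come from the 250 bases before the annotated start, on the strand of the gene and 5′ to 3′. The interferon-type element was sought as GAAA, any 2 bases and again GAAA on either strand. An element that departs from this exact pattern is not found, so genes without a match may still hold one. The stretches are shown because the 4 genes with a match in this window include TAP2, TAPBP and TAP1. Hypoxia in siControl called TAP2 down, TAPBP up and TAP1 not at all in the fit without a correction for GC content. With that correction TAP1 was called down too (-0.26, edgeR adjusted p 0.0103).

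TAP2, chr6:32838740-32838989, minus strand: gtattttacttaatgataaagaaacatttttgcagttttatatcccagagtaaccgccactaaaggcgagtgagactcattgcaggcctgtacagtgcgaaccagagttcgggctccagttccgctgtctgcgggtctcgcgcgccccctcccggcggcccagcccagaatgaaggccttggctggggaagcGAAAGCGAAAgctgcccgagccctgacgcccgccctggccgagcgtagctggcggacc
TAP1, chr6:32853804-32853863, minus strand: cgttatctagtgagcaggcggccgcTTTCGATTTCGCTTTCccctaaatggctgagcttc
TAPBP, chr6:33314079-33314138, minus strand: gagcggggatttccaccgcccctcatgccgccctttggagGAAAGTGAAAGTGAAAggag
B2M, chr15:44711348-44711407, plus strand: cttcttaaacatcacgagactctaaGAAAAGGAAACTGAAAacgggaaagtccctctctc
HLA-B, chr6:31357322-31357381, minus strand: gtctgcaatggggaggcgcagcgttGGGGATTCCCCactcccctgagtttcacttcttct
HLA-C, chr6:31272246-31272305, minus strand: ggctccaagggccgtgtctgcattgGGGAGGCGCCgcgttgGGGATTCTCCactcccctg

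Capitals mark the interferon-type element in the first 4 sequences. In HLA-B and HLA-C they mark matches to the NF-kB-like pattern GGGA, any 4 bases and CC, also sought on both strands. The 250-base windows of B2M, TAP1 and TAPBP held the NF-kB-like pattern too, where it is left unmarked. TAP2 holds the interferon-type element at 1 place and TAP1, TAPBP and B2M each at 2 overlapping places. Over all 35116 promoters of the table, 3.02% held the interferon-type element in the same 250 bases and 22.6% held the NF-kB-like pattern, on either strand. The core ACGTG on either strand, the short motif bound by HIF with ARNT, was in 18.5% of all promoters and, among the class I genes, in that of PSMB9. The core GCGTG, which HIF also binds, was in 32.2% of all promoters. Among the class I genes it was in the windows of B2M, HLA-B, PSMB8, PSMB9 and TAP1. TAP2 held neither HIF core in this window. HLA-B and HLA-C are near-copies: 226 of the 250 bases before their starts were identical in an alignment (90.4%). Reads that match both genes can be lost or split by the authors' counting, so the HLA-B and HLA-C values are uncertain as to the gene.

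Levels were first ordered in normoxia siControl, on a scale that divides CPM by the length of the transcript in kb. B2M stood highest at 788.1 ± 28.5, and TAPBP followed at 33.6 ± 1.41 (SD, n = 3). PSMB8, the interferon-inducible catalytic subunit LMP7, was at 20.9 ± 1.81 and HLA-C at 19.6 ± 1.71, which did not differ beyond their spread. Next came PSMB9 at 8.24 ± 0.53, HLA-B at 8.1 ± 0.73, TAP1 at 8.03 ± 0.611 and TAP2 at 7.54 ± 0.121, and none of these neighbours differed beyond its spread. NLRC5, the class I transactivator, was lowest at 0.522 ± 0.0542. The light chain was thus far above the heavy chains in these cells, and the transporter chains stood close to each other.

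**Figure D1:**
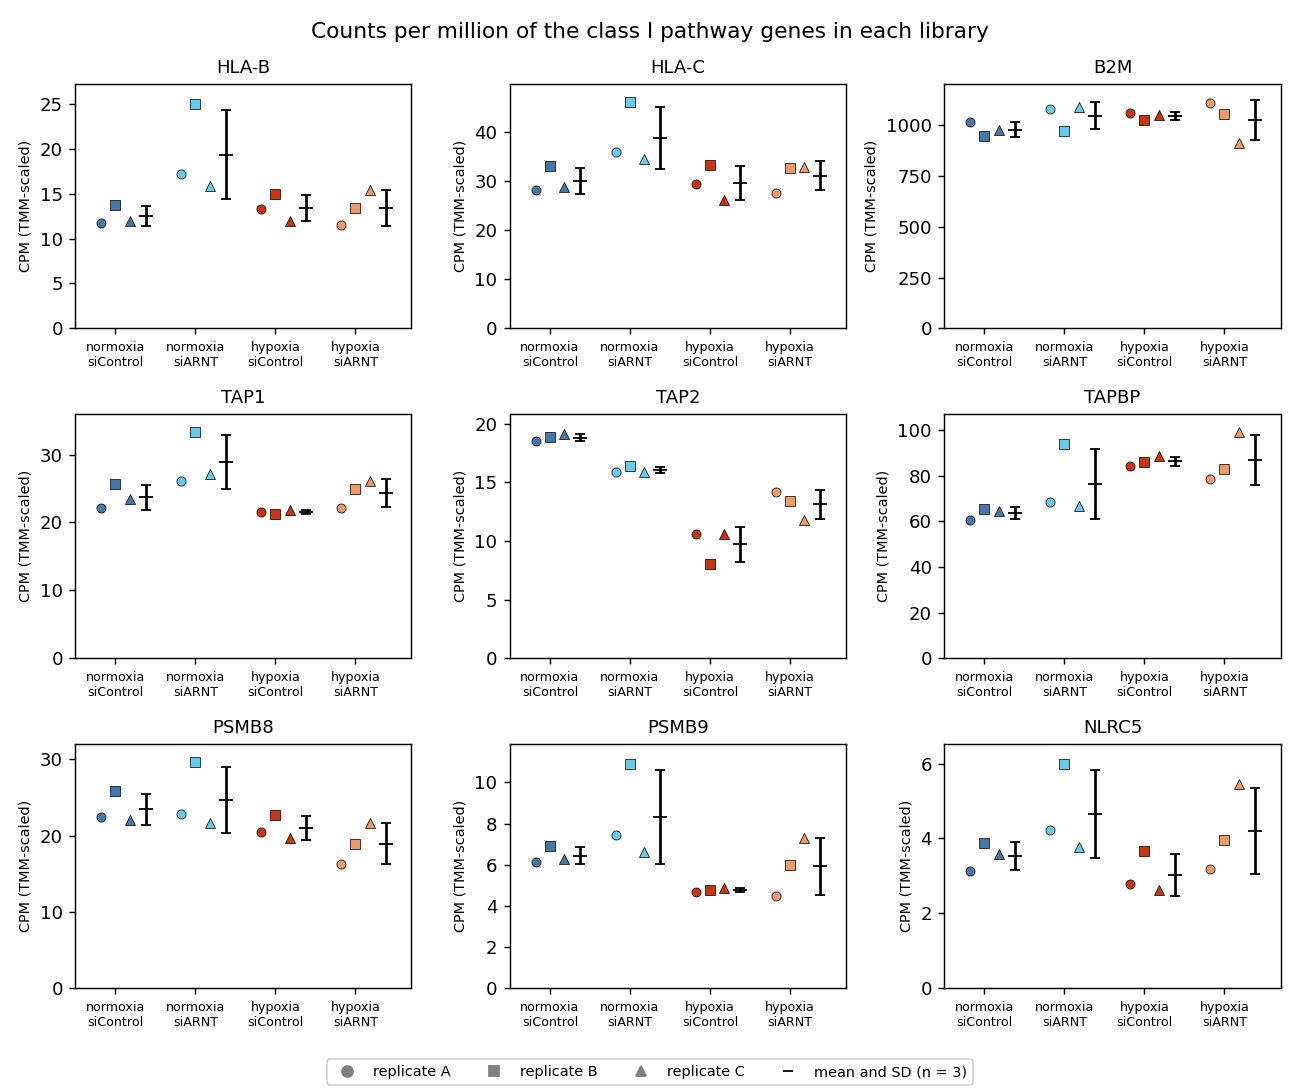
CPM (y axis, from 0) of the 9 class I pathway genes in each of the 12 libraries (points, by group on the x axis, with the shape giving the replicate) and the group mean and SD (black bars, n = 3). TAP2 lies between 18.5 and 19.1 CPM in normoxia siControl and between 8.01 and 10.6 in hypoxia siControl, while HLA-B, HLA-C, TAP1, PSMB8, PSMB9 and NLRC5 are highest in normoxia siARNT replicate B.

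TAP2 was, of the 9 genes, the one with the largest change with hypoxia in siControl cells. It forms the peptide transporter with TAP1. Normoxia siControl libraries A, B and C held 18.5, 18.9 and 19.1 CPM of TAP2, and hypoxia siControl libraries held 10.6, 8.01 and 10.6 CPM. Normoxia siARNT libraries held 15.9, 16.4 and 15.9 CPM, and hypoxia siARNT libraries 14.2, 13.4 and 11.8 CPM. The 4 groups did not overlap at all: TAP2 was highest without either treatment, lowest in hypoxia with siControl, and in between in both siARNT groups.

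The first comparison asked which class I genes respond to hypoxia when ARNT is present. In siControl cells 2 of the 9 genes were called at an adjusted p under 0.05 (edgeR quasi-likelihood test, adjusted over all genes), TAP2 down and TAPBP up, against 25.3% of all genes tested (10.4% up and 14.9% down). TAP2 fell by 0.95 on the log2 scale (SE 0.111, adjusted p 0.000101), to 0.519 of its normoxia level. It kept this call in all 21 alternatives run, with values from -1.02 to -0.81 and adjusted p of at most 0.00106. TAPBP, the tapasin gene, rose from 60.5, 65.5 and 64.5 CPM to 84.3, 86 and 88.4 CPM, and its groups did not overlap. Its log2 fold change was 0.44 (SE 0.123, adjusted p 0.0202), and the call was lost without normoxia siControl replicate A (adjusted p 0.0711) or C (0.0504) and without hypoxia siControl replicate C (0.0531). The genes next to each other in the peptide-loading pathway thus moved in opposite directions.

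The other 7 genes gave no call for hypoxia in siControl by the fit to all 12 libraries without a correction for GC content. PSMB9, the inducible catalytic subunit LMP2, stood at 6.13, 6.91 and 6.29 CPM in normoxia and at 4.66, 4.75 and 4.89 CPM in hypoxia. These values did not overlap, but the log2 fold change of -0.43 (SE 0.195) had an adjusted p of 0.131. PSMB9 was called when only the 6 libraries compared were fitted (adjusted p 0.00813), without normoxia siARNT replicate B (0.0366) and with a correction for GC content. TAP1 likewise did not overlap (22.1, 25.7 and 23.4 CPM against 21.5, 21.2 and 21.8), at -0.14 (SE 0.102, adjusted p 0.341). B2M was at 1016, 945.2 and 977.5 CPM in normoxia and at 1062, 1026 and 1052 CPM in hypoxia (log2 fold change 0.10, SE 0.074, adjusted p 0.387). HLA-B (0.10), HLA-C (-0.02), PSMB8 (-0.16) and NLRC5 (-0.22) overlapped between the groups, with adjusted p from 0.416 to 0.926. Groups did not overlap in 2 genes upward and 3 downward, against 21.5% and 25.3% of all genes. The median over the 9 genes was -0.14, and over all tested genes 0.022.

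The second comparison asked the same with ARNT reduced. In siARNT cells hypoxia gave 0 calls among the 9 genes by edgeR, against 4.09% of all genes (2.21% up and 1.89% down), and 6 had an unadjusted p under 0.05. DESeq2 gave 1 call (HLA-B down, adjusted p 0.0494), as did edgeR without the filter on low counts (0.0495). TAP2 went from 15.9, 16.4 and 15.9 to 14.2, 13.4 and 11.8 CPM, with no overlap, at -0.29 (SE 0.11, adjusted p 0.16). The log2 fold change of HLA-B was -0.52 (SE 0.17, adjusted p 0.103), that of HLA-C -0.32 (SE 0.126, adjusted p 0.175), that of PSMB9 -0.49 (SE 0.194, adjusted p 0.174) and that of PSMB8 -0.38 (SE 0.133, adjusted p 0.129). Of the 9 genes, TAPBP was the one with a positive value, 0.19 (SE 0.122, adjusted p 0.415). The median was -0.29, against -0.039 over all genes. Groups did not overlap in 0 genes upward and 3 downward, against 11.5% and 10.7% of all genes. Beside these values stands the GC slope of normoxia siARNT replicate B, the library in which HLA-B, HLA-C, TAP1, PSMB8, PSMB9 and NLRC5 were all at their highest. Without that library the log2 fold change was -0.29 for HLA-B, -0.25 for PSMB9 and 0.37 for TAPBP, which then was called (adjusted p 0.0492).

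The third comparison asked what siARNT does in normoxia, and 1 of the 9 genes was called, HLA-B upward, against 20.2% of all genes (9.42% up and 10.8% down). HLA-B, a classical heavy chain, stood at 11.8, 13.8 and 12 CPM with siControl and at 17.2, 25.1 and 15.9 CPM with siARNT. All siARNT libraries were above all siControl libraries, and the highest was replicate B. The log2 fold change was 0.63 (SE 0.17, adjusted p 0.0239), and the call was lost without normoxia siControl replicate A (adjusted p 0.0959) or C (0.091), without normoxia siARNT replicate B (0.0679, with the value then 0.40), and when only the 6 libraries compared were fitted (0.0531). HLA-C, the other classical heavy chain followed, had 28.3, 33.1 and 28.8 CPM with siControl and 35.9, 46.1 and 34.5 CPM with siARNT, and its change of 0.37 (SE 0.126) did not pass (adjusted p 0.0576). HLA-C was called by DESeq2 (adjusted p 0.0295), without the filter on low counts (0.017) and without normoxia siARNT replicate C (0.0413) or hypoxia siARNT replicate A (0.0458). TAP1 gave 0.28 (SE 0.101, adjusted p 0.0673) and was called without normoxia siARNT replicate A (0.0441). PSMB9 was at 0.37 (SE 0.192, adjusted p 0.175) and NLRC5 at 0.40 (SE 0.221, adjusted p 0.196). TAP2 was the one gene of the 9 with a negative value, -0.23 (SE 0.109, adjusted p 0.139), and was called without hypoxia siControl replicate B (0.0394). Groups did not overlap in 4 genes upward and 1 downward, against 23.2% and 23.3% of all genes. Leukocyte markers summed to 1.27 to 2.07 CPM in normoxia siARNT and 0.78 to 1.05 in normoxia siControl, with CD3E at 0, and their part in these values was not tested.

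The fourth comparison asked what siARNT does in hypoxia, and again 1 of the 9 genes was called, TAP2 upward, against 29.1% of all genes (14.4% up and 14.7% down). TAP2 was 1.35-fold higher with siARNT than with siControl (log2 fold change 0.43, SE 0.111, adjusted p 0.0124). The call was lost without hypoxia siARNT replicate A (adjusted p 0.0506) and with the GC correction (0.0625), where the value was 0.42. TAP1 had 22.1, 25 and 26.1 CPM with siARNT, above the siControl range of 21.2 to 21.8 CPM, at 0.18 (SE 0.102, adjusted p 0.208). HLA-B (0.00), HLA-C (0.07), B2M (-0.03) and TAPBP (0.01) had changes within their standard errors. NLRC5 was at 0.47 with a standard error of 0.225 (adjusted p 0.144). Groups did not overlap in 2 genes upward and 0 downward, against 20% and 20.2% of all genes.

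The difference between the hypoxia changes was then tested as the interaction, in which the log2 change with hypoxia in siControl cells is subtracted from the one in siARNT cells. TAP2 was the 1 gene of the 9 called, against 4.69% of all genes (2.49% up and 2.19% down), at 0.66 (SE 0.155, adjusted p 0.0356): its fall in hypoxia was smaller with siARNT. All 20 alternatives kept the direction, with values from 0.54 to 0.84, and 11 kept the call. The adjusted p was over 0.05 without normoxia siControl replicate A (0.0905), B (0.0843) or C (0.106), without normoxia siARNT replicate A (0.0767) or C (0.073), without hypoxia siControl replicate A (0.0524), and without hypoxia siARNT replicate A (0.0847) or B (0.0979). It was also over 0.05 with the transfected well as a block (0.0756). The well was inferred from the siRNA and the replicate letter, since the sample titles give a letter and no well. The interaction of HLA-B was -0.63 (SE 0.24, adjusted p 0.165) and that of TAPBP -0.25 (SE 0.173, adjusted p 0.415). Because the comparisons share groups, their values are not independent of each other.

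**Figure D2:**
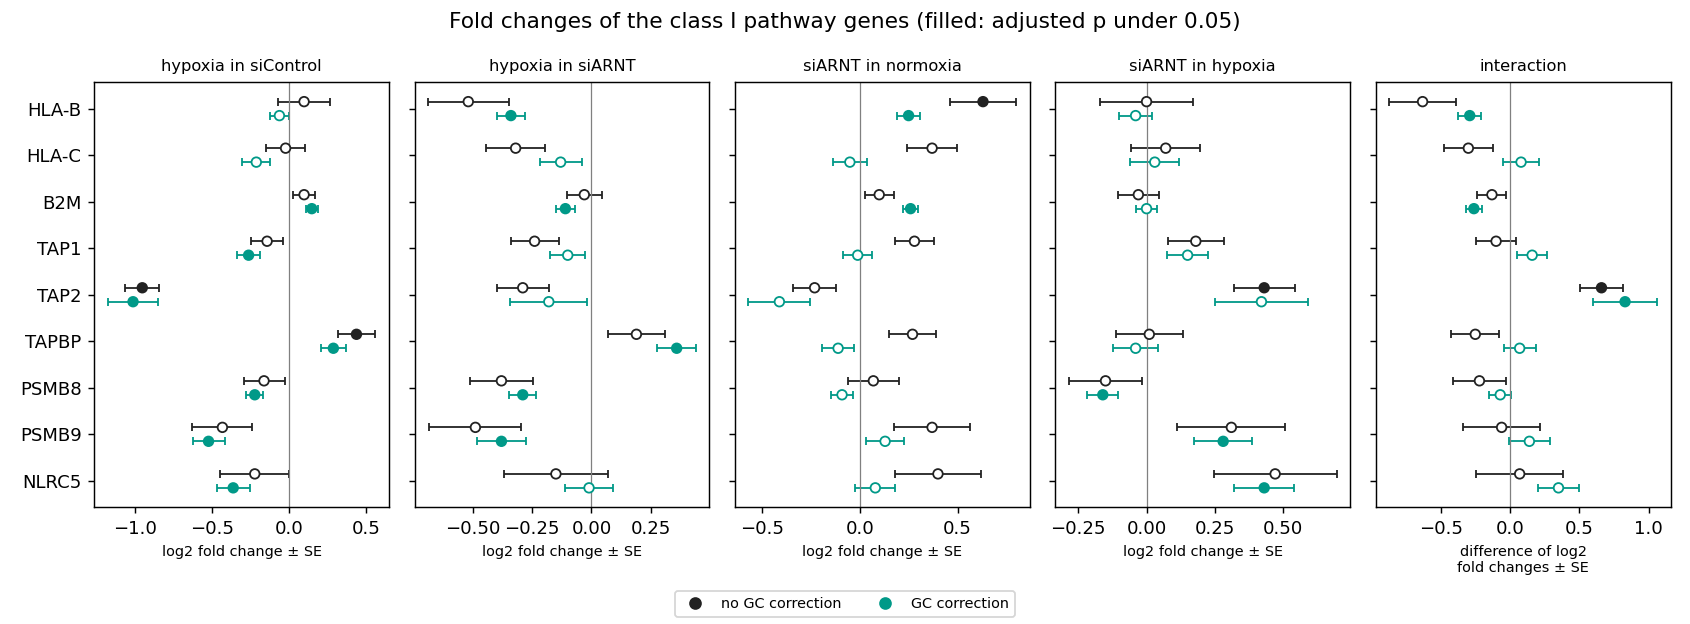
Log2 fold changes with standard errors (x axis) of the 9 class I pathway genes (y axis) in the 4 comparisons and the interaction, without (black) and with (green) a correction for gene GC content, filled where the adjusted p was under 0.05. TAP2 is at -0.95 for hypoxia in siControl without the correction and -1.01 with it, while HLA-B with siARNT in normoxia moves from 0.63 to 0.25.

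Most of the genes other than TAP2 moved together with the GC slope of the library. In each of the 4 groups 1 library had the highest slope, with the sign counted, so that -0.038 is above -0.207. That library was also the one with the most HLA-B, HLA-C, PSMB8 and NLRC5, and the one with the least B2M, the gene of low GC content. For TAP1, TAPBP and PSMB9 it was the highest in 3 of the 4 groups, and for TAP2 in 1. Over the 12 libraries the Pearson r between the GC slope and log2 CPM was 0.90 for HLA-B, 0.87 for HLA-C, 0.86 for NLRC5, -0.45 for B2M and -0.19 for TAP2. These r are descriptions over libraries that share their slope with many other genes. The 5 genes outside the list whose log2 CPM was most like the mean of the 9 were CLPTM1L (r = 0.987), NDUFB10 (0.987), PHB2 (0.984), GCDH (0.982) and PCK2 (0.979), over 12 libraries. Their GC contents were 55.8 to 59.9%, close to those of the class I genes.

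**Figure D3:**
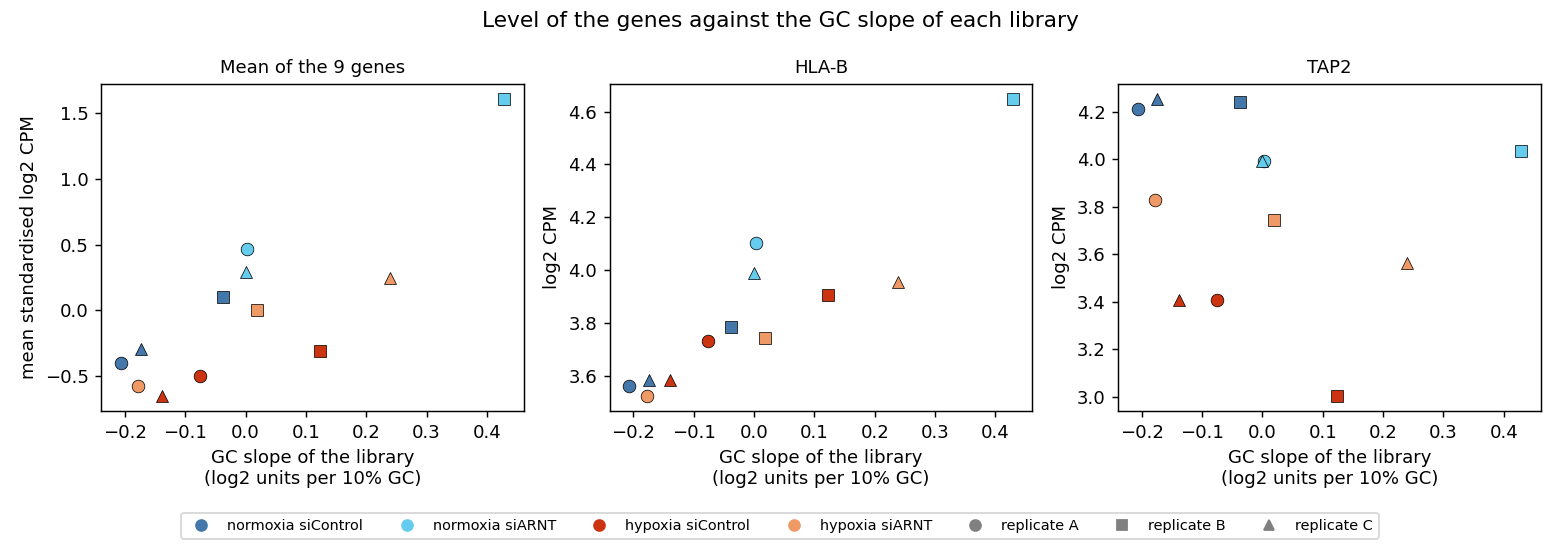
Mean standardised log2 CPM of the 9 genes, log2 CPM of HLA-B and log2 CPM of TAP2 (y axes) against the GC slope of each library (x axis), with 1 point per library, coloured by group and shaped by replicate. The mean of the 9 genes and HLA-B are highest at a slope of 0.429 (normoxia siARNT replicate B), and TAP2 separates by group.

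A fit that removed a smooth curve on gene GC content from each library was therefore given beside the fit without it. It called more genes in every comparison, so its counts are read against a higher background. For hypoxia in siControl it called 7 of the 9 genes, against 42.9% of all genes. TAP2 fell by 1.01 (adjusted p 0.000424), PSMB9 by 0.52 (adjusted p 0.00067), NLRC5 by 0.36, TAP1 by 0.26 and PSMB8 by 0.22, and TAPBP (0.29) and B2M (0.15) rose, with HLA-B (-0.06) and HLA-C (-0.21) not called. For hypoxia in siARNT it called HLA-B (-0.34), PSMB9 (-0.38), PSMB8 (-0.29) and B2M (-0.11) down and TAPBP (0.36) up, against 23.2% of all genes. With siARNT in normoxia it called HLA-B (0.25, adjusted p 0.00295) and B2M (0.26, adjusted p 7.97e-05) up, against 32.9%, while HLA-C was at -0.05 and TAP1 at -0.01. The median of the 9 genes was then -0.01, and 0.28 without the correction. In normoxia all siARNT slopes were above all siControl slopes. The correction can therefore also remove a difference between the siRNAs that varies with GC content, which was not tested. With siARNT in hypoxia it called PSMB9 (0.28) and NLRC5 (0.43) up and PSMB8 (-0.16) down, against 46.8%. For the interaction it called TAP2 (0.83, adjusted p 0.0296) up and HLA-B (-0.29) and B2M (-0.26) down, against 18.9%. The median was then 0.08, and -0.13 without the correction.

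Ratios within a library compare genes that share that library's depth and scaling, and here they use levels per transcript length. TAP1 and TAP2 make the transporter together. The ratio of TAP1 to TAP2 was 1.01, 1.15 and 1.04 in normoxia siControl and 1.71, 2.24 and 1.73 in hypoxia siControl, so the chains went from about equal levels to an excess of TAP1. In normoxia siARNT it was 1.38, 1.72 and 1.44, also above the normoxia siControl range, and in hypoxia siARNT 1.32, 1.57 and 1.87, overlapping normoxia siARNT. The exact two-sided permutation p was 0.1 for hypoxia in siControl and for siARNT in normoxia. That is the smallest p that 3 libraries against 3 can give, so no ratio could pass 0.05. The ratio of HLA-B to HLA-C was 0.414, 0.415 and 0.412 in normoxia siControl, 0.45, 0.448 and 0.454 in hypoxia siControl, 0.476, 0.541 and 0.457 in normoxia siARNT, and 0.414, 0.407 and 0.467 in hypoxia siARNT. It was thus above the normoxia siControl range with hypoxia alone and with siARNT alone (exact permutation p 0.1 for each), and the near-identity of these genes limits it too.

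In the immunoproteasome, PSMB8 takes the place of the constitutive subunit PSMB5 and PSMB9 that of PSMB6. PSMB8 relative to PSMB5 was 0.461, 0.468 and 0.441 in normoxia siControl and 0.474, 0.44 and 0.473 in hypoxia siControl, and 0.36, 0.357 and 0.344 in normoxia siARNT and 0.32, 0.338 and 0.33 in hypoxia siARNT. The siARNT libraries were all below the siControl libraries at both oxygen levels (exact permutation p 0.1 for each, the smallest possible). PSMB5 itself rose with siARNT in normoxia by 0.44 (SE 0.126, adjusted p 0.0312) and was at 0.34 in hypoxia (SE 0.127, adjusted p 0.0657), whereas PSMB8 was at 0.07 and -0.15. The PSMB5 call was lost without 3 of the 12 libraries in turn, with an adjusted p of up to 0.122, and without normoxia siARNT replicate B its value was 0.29. PSMB9 relative to PSMB6 was 0.159, 0.164 and 0.169 in normoxia siControl, 0.171, 0.123 and 0.177 in hypoxia siControl, 0.147, 0.144 and 0.135 in normoxia siARNT and 0.13, 0.135 and 0.124 in hypoxia siARNT. Its groups separated between siRNAs in normoxia (exact permutation p 0.1), and in hypoxia they overlapped through hypoxia siControl replicate B. The third inducible subunit, PSMB10, was low, at 0.491 to 3.86 CPM, beside 92.6 to 139.6 CPM of its counterpart PSMB7.

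**Figure D4:**
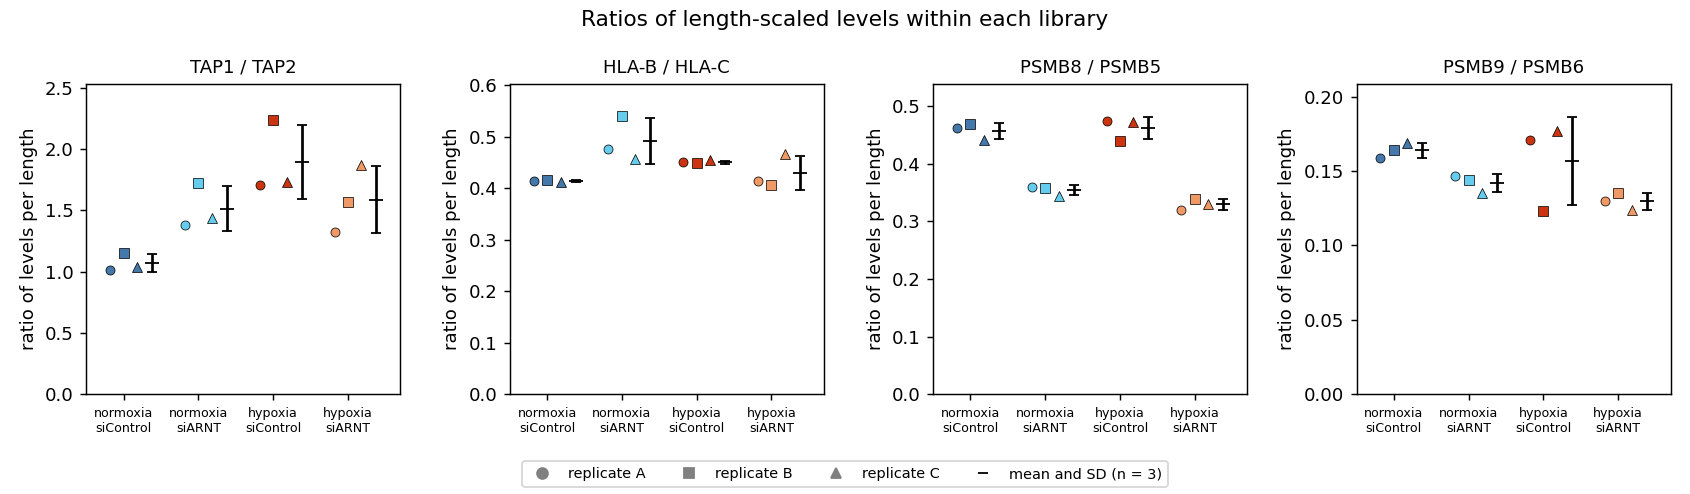
Ratios of length-scaled levels (y axes, from 0) of TAP1 to TAP2, HLA-B to HLA-C, PSMB8 to PSMB5 and PSMB9 to PSMB6 in each library (points, by group) with the mean and SD (bars, n = 3). PSMB8 to PSMB5 is between 0.32 and 0.36 in the siARNT libraries and between 0.44 and 0.474 in the siControl libraries.

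The proteasome as a whole supplies the peptides. Of 19 other proteasome genes tested, 12 fell and 0 rose with hypoxia in siControl, against 14.9% of all genes called down, and their median was -0.36. With hypoxia in siARNT 2 fell, against 1.89% called down. The GC correction called 8 there, all of them down, against 23.2% of all genes called in either direction. With siARNT 4 rose in normoxia, against 9.42% called up, and 12 rose and 0 fell in hypoxia, against 14.4% called up. For siARNT in normoxia the correction called 8, of which 7 rose and 1 fell, against 32.9% of all genes called in either direction. PSMA5, a subunit of the outer ring, had 143.3, 135.8 and 141.8 CPM in normoxia siControl, 100.5, 96.7 and 101.6 in hypoxia siControl, 147.5, 136.6 and 140.2 in normoxia siARNT and 139.7, 131.9 and 119.9 in hypoxia siARNT. The hypoxia siControl libraries were below all others, and the hypoxia change was -0.49 with siControl (SE 0.062, adjusted p 0.00017) and -0.12 with siARNT (SE 0.062, adjusted p 0.317). The difference was called for PSMA5 (0.38, SE 0.088, adjusted p 0.0334), PSMA3 (0.47, SE 0.108, adjusted p 0.0313) and PSME3 (0.44, SE 0.101, adjusted p 0.0303), which encodes the proteasome activator subunit gamma. With 1 library left out, the interaction call was lost for 9 of the 12 choices in PSMA5 and in PSME3 and for 8 in PSMA3, and with the transfected well as a block it was lost in all 3 (adjusted p 0.0538 to 0.0624). The inducible subunits PSMB8 and PSMB9 were not called in these comparisons by the fit to all 12 libraries without the GC correction. With the correction both were called down for hypoxia in siControl (-0.22 and -0.52) and in siARNT (-0.29 and -0.38). With siARNT in hypoxia it called PSMB8 down (-0.16) and PSMB9 up (0.28). The difference between the inducible and the other subunits was not tested.

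Among 27 tested regulators of class I transcription, 5 rose and 5 fell with hypoxia in siControl, 0 were called with hypoxia in siARNT (6 at an unadjusted p under 0.05, and 0 by DESeq2), 3 rose and 2 fell with siARNT in normoxia, and 8 rose and 4 fell with siARNT in hypoxia. Over all genes 10.4% rose and 14.9% fell in the first of these comparisons, 4.09% were called in the second, 9.42% rose and 10.8% fell in the third, and 14.4% rose and 14.7% fell in the fourth. With the GC correction 12, 9, 14 and 17 regulators were called, against 42.9, 23.2, 32.9 and 46.8% of all genes. RFX5, the DNA-binding subunit of the RFX complex on class I and class II promoters, was the one regulator called in the interaction by the fit without the correction. With it 5 were called, against 18.9% of all genes. The levels of RFX5 were 57.1, 53.5 and 56.6 CPM in normoxia siControl and 37, 36.8 and 34 CPM in hypoxia siControl. In normoxia siARNT they were 41.1, 41.5 and 39.5 CPM, and in hypoxia siARNT 43.3, 39.7 and 37.8 CPM. RFX5, like TAP2, was highest in normoxia siControl and lowest in hypoxia siControl. It fell with hypoxia in siControl by 0.63 (SE 0.065, adjusted p 3.87e-05) and with siARNT in normoxia by 0.45 (SE 0.064, adjusted p 0.000698), and was at -0.01 for hypoxia in siARNT (adjusted p 0.919). Its interaction was 0.62 (SE 0.091, adjusted p 0.00344) and held in all 20 alternatives, from 0.59 to 0.67.

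JAK1, a kinase of the interferon receptors, rose with siARNT by 0.22 in normoxia (SE 0.064, adjusted p 0.0308) and by 0.35 in hypoxia (SE 0.064, adjusted p 0.00149), and the normoxia value was 0.33 with the GC correction. The normoxia call was lost without 8 of the 12 libraries in turn. IRF1, an activator of class I genes named after its values were seen, was with siControl at 15.6 ± 1.57 CPM in normoxia and 15.7 ± 0.116 in hypoxia, and with siARNT at 18.1 ± 3.95 and 18 ± 1.44 CPM (SD, n = 3). It was called in none of the comparisons by the fit without the GC correction. With the correction IRF1 was among the regulators called with siARNT in hypoxia.

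**Figure D5:**
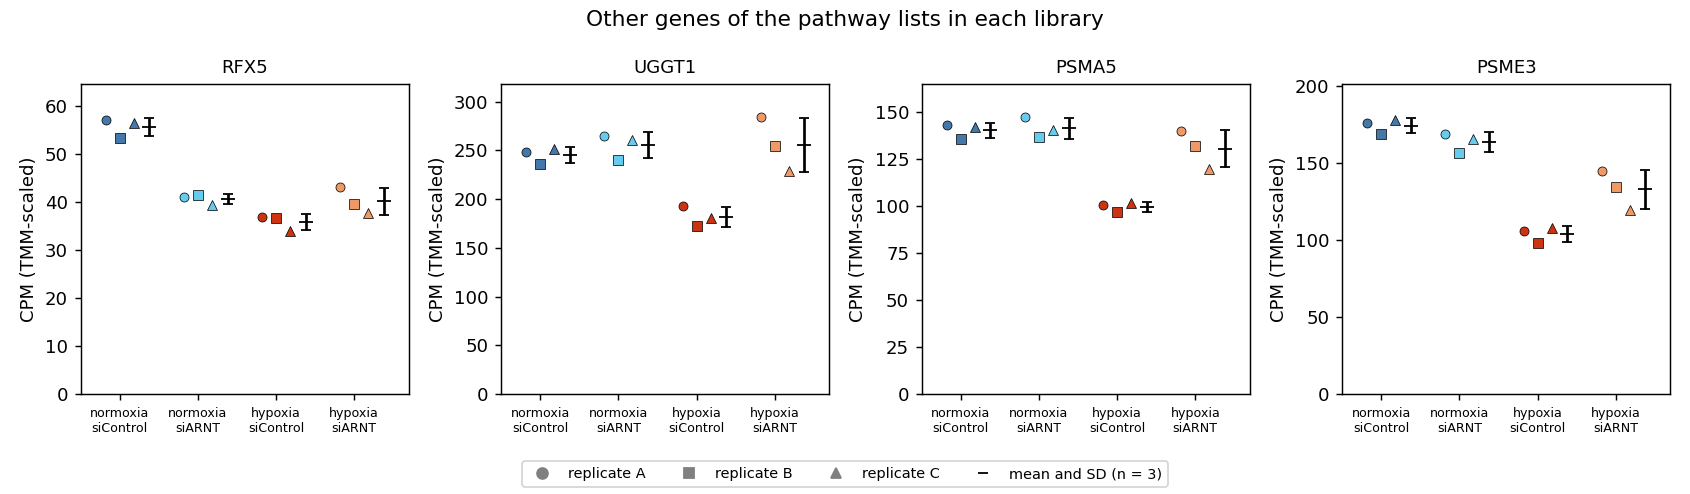
CPM (y axes, from 0) of RFX5, UGGT1, PSMA5 and PSME3 in each library (points, by group on the x axis, with the shape giving the replicate) with the group mean and SD (bars, n = 3). RFX5 is between 53.5 and 57.1 CPM in normoxia siControl and between 34 and 43.3 CPM in the other groups, and the other genes are lowest in hypoxia siControl.

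Of 10 other class I and class I-like chains tested, 0 were called for hypoxia with either siRNA by edgeR or DESeq2 (3 and 2 at an unadjusted p under 0.05). Over all genes edgeR called 25.3% with siControl and 4.09% with siARNT. With the GC correction 4 and 2 of the chains were called, against 42.9% and 23.2% of all genes. HLA-E, the ligand of the NK receptor NKG2A, was at 70.5, 78.5 and 70.9 CPM in normoxia siControl. It was called in none of the comparisons without the GC correction. With the correction HLA-E was called down with siARNT in hypoxia (edgeR adjusted p 0.00509). Of 11 other peptide loading and trimming genes, 2 fell with hypoxia in siControl, against 14.9% of all genes called down. UGGT1, the folding sensor that returns class I molecules to the loading complex, was among them (-0.43, SE 0.079, adjusted p 0.00193). It was higher with siARNT in hypoxia by 0.49 (SE 0.079, adjusted p 0.000648), with an interaction of 0.43 (SE 0.111, adjusted p 0.0495) that was lost without 11 of the 12 libraries in turn.

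Class II genes were low, with 6 of 11 tested. HLA-DOB, which lies next to TAP2, fell with hypoxia in siControl by 0.78 (SE 0.226, adjusted p 0.0242) from 1.49, 1.49 and 1.36 CPM to 0.996, 0.945 and 0.558 CPM. Among 8 tested ligands of T and NK cell receptors, CD47, which signals against phagocytosis, rose with hypoxia in siControl by 0.34 (SE 0.089, adjusted p 0.0146) and was lower with siARNT in hypoxia by 0.45 (SE 0.089, adjusted p 0.00244). Each of the calls in HLA-DOB and CD47 for hypoxia in siControl was lost without 4 of the 12 libraries in turn. With siARNT in normoxia 4 of the 8 rose and 0 fell, against 9.42% of all genes called up, and the median was 0.32. With the GC correction 2 of the 8 were called, ULBP2 and LGALS9, against 32.9% of all genes, and the median was 0.08. The calls of CD276, PVR and NECTIN2 were lost there.

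Splicing was read as PSI, the percentage of an event's signal that includes the sequence in question. The signal was junction reads, except that a retained intron was read as its mean coverage beside the junction reads that remove it. The event files held 19 events in 5 of the class I genes, and 16 in 4 genes had at least 10 reads in every library. No event was called by limma in any of the 5 comparisons (0 of 16 in each), while the number at an unadjusted p under 0.05 was 3 and 1 for hypoxia with siControl and with siARNT, 0 and 1 for siARNT at 21% and 1% O2, and 0 for the interaction. Over all 45856 events the calls were also few, at 0.024, 0.0305, 0.0153, 0.024 and 0.0327% in the same order. In B2M the inclusion of a 28-nucleotide exon was 96.7, 96.4 and 96.7% in normoxia siControl and 100% in all 3 hypoxia siControl libraries, with a mean of 9390 reads. In normoxia siARNT it was 96.7, 96.7 and 100%, and in hypoxia siARNT 100, 97.1 and 100%. The values therefore were either 100% or between 96.4 and 97.1% within the siARNT groups too, and the lowest adjusted p of all member events was 0.576. An alternative 3′ splice site 18 nucleotides apart in HLA-C had a PSI with siControl of 64 ± 6.63% in normoxia and 66.3 ± 3.42% in hypoxia, and with siARNT of 70.1 ± 2.91 and 67.2 ± 4.08% (SD, n = 3). Retention of a 138-nucleotide intron of TAPBP was 17.2 ± 2.54 and 23.4 ± 3.25% with siControl and 18.7 ± 4.01 and 17.8 ± 1.33% with siARNT, again in normoxia and hypoxia. TAP1, TAP2, PSMB8 and HLA-B had no event in these files.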

How the data were processed

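Poly(A) RNA of 12 AsPC-1 samples was sequenced from stranded libraries, single-end, per the labels' protocols. Per the submitters' processing notes, Trimmomatic, STAR 2.4.2a and GRCh38.p10 were used. The authors deposited counts, whole reads for each Ensembl gene. The counting settings and use of strand are not given in the sources used here. Summary lines naming no gene (22.7 to 25.2% of reads) were left out. Of 57820 IDs, 51996 were paired with a symbol. The deposited event files give junction counts, mean intron coverage (a signal) and PSI as a fraction, of which only the counts and coverage were used. Exon positions in them did not match GRCh38 for most events, so no coordinate from them is printed.

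The gene test was edgeR 4.0.16 in R 4.3.3, after TMM scaling and filterByExpr, as robust quasi-likelihood fits to all 12 libraries with a mean for each group. Adjustment was by Benjamini-Hochberg over 16999 genes, and an adjusted p under 0.05 made a call. Event log2 odds (prior count 0.5, at least 10 reads in every library) were tested with limma 3.58.1. Transcript length and GC content came from GENCODE 29, promoters and gene positions from RefSeq GRCh38.p14. The scripts were tested on simulated data.

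The 9 genes and the gene lists were chosen with earlier results of these data known. The naming rule took all 9 genes, from each list the 3 tested genes with the highest mean CPM and any called in the interaction, the constitutive counterparts of the inducible subunits, the 5 genes most like the 9, and the member splice events with most reads. HLA-DOB and CD47 fall under it, and IRF1 does not. Some genes that the rule takes are not reported here. Alternatives were DESeq2 1.42.0, total count scaling, other filters, 6 libraries, blocks, the GC correction and leaving out each library. Those for list genes were added after seeing the data.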

Additional observations from a re-analysis of the deposited data

Results flagged for a closer look

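In 6 of the 90 tested genes of the pathway lists (6.67%, against 4.69% of all genes) the hypoxia change differed between the siRNAs by the test of that difference (edgeR, adjusted over all genes). Taking the change in siControl cells from that in siARNT cells left 0.66 on the log2 scale for TAP2 (adjusted p 0.0356), 0.62 for RFX5 (0.00344), 0.47 for PSMA3 (0.0313), 0.44 for PSME3 (0.0303), 0.43 for UGGT1 (0.0495) and 0.38 for PSMA5 (0.0334). Outside these lists, the epithelial markers CDH1 (-0.42) and MUC1 (-1.21) and the HIF targets CA9 (-3.02) and NDRG1 (-2.32) were also called, with the opposite sign. In each of the 6 genes the value for hypoxia was lower with siControl than with siARNT. Over the 20 alternatives the call held in 20 for RFX5, in 11 for TAP2 and PSMA3, in 9 for PSME3 and PSMA5 and in 7 for UGGT1, and the direction held in all.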

How the results depend on the processing

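Over 21 alternatives for hypoxia within a siRNA and 20 for the other comparisons, no call of the 9 genes reversed. The GC correction raised the counts over all genes and over the 9 genes in every comparison, alone and with the replicate block by letter beside it. For the hypoxia change in siControl these called 7285 and 7521 genes (4299 without) and 7 of the 9 genes both times. For the hypoxia change in siARNT they called 3948 and 4252 (696 without) and 5 both times. With siARNT in normoxia the counts were 5590 and 5948 (3431 without), with 2 and 3 of the 9 genes, and in hypoxia 7960 and 8179 (4948 without), with 3 and 4. For the interaction they were 3212 and 3392 (797 without), with 3 both times. PDIA3 (0.13 with and without the block) and IFNGR1 (0.14) changed sign to a call with siARNT in normoxia under it, and CD276 went from 0.48 to 0.00. Of the 9 genes, DESeq2 and no filter called 1 each for hypoxia in siARNT and 2 each for siARNT in normoxia. Fitting the 6 libraries compared called 22 genes for hypoxia in siARNT and 0 of the 9 for siARNT in normoxia. Total count scaling gave 1495 interaction calls (1125 up and 370 down, against 424 and 373) and moved the median of all genes to 0.104 for siARNT in hypoxia. Replicate letters did not pair the samples: same-letter libraries deviated together (r over 0.1) in 9 of 18 pairs, and 0 libraries were most like those of their own letter in every other group. The letter as a replicate block called 3 of the 9 genes for siARNT in normoxia (HLA-B, and also HLA-C at an adjusted p of 0.0132 and TAP1 at 0.035) and changed no other count of the 9, and over all genes it gave 4740, 862, 4732, 5425 and 960 calls (hypoxia in siControl and in siARNT, siARNT in normoxia and in hypoxia, interaction). The transfected well as a replicate block gave 136 calls for hypoxia in siARNT and 373 for the interaction, with 0 of the 9. The well was inferred by taking same-letter libraries of an siRNA as a pair. These deviated together (r over 0.1) in 2 of 6 pairs, so the block may not match a real unit. With 1 library left out, calls ran from 2873 to 5242 and 1 to 3 of the 9 (hypoxia in siControl), 129 to 707 and 0 to 1 (hypoxia in siARNT), 1571 to 4148 and 0 to 2 (siARNT in normoxia), 3537 to 5847 and 0 to 1 (siARNT in hypoxia) and 272 to 1188 and 0 to 1 (interaction). For hypoxia in siARNT the count over all genes fell by over 1.5 times without any 1 library but hypoxia siControl B or C, for siARNT in normoxia without a normoxia siControl library or normoxia siARNT B, and for the interaction without any but normoxia siARNT B, hypoxia siControl C or hypoxia siARNT C. The cause was not tested. No splice event of these genes was called under any alternative run, replicate block included (0 events). Depth was not the limit for B2M (37598 counts or more in every library), and NLRC5 rests on as few as 122.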
